A study of Asparagus officinalis with 3 samples.

Results

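The families miR394, miR477, miR894, miR1425 and miR5179 were each represented by 1 sequence in asparagus (*Asparagus officinalis*), a dioecious monocot whose plants are male or female. They were taken from the deposited list by their family name, which gave 5 of the 194 listed miRNAs and 6 of the 463 listed target sites. The female and male groups were 3-year-old plants of the cultivar Grand, grown in a greenhouse. For each sex, 1 small RNA library was made from a pool in which 4 organs (flowers, stems, roots and leaves) of several plants gave equal amounts of RNA. The sexes could therefore be compared only as a pair of libraries, with no replicate libraries and no p-value, and an organ that carried more of a miRNA cannot be told apart from a higher level in all organs, nor fewer cells of a type from less RNA per cell.

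Plant miRNAs are cut from hairpin precursors and guide an Argonaute protein to mRNAs with nearly complementary sites, which are then usually cleaved between the bases paired to positions 10 and 11 of the miRNA. In *Arabidopsis*, miR394 acts on the mRNA of the F-box protein LEAF CURLING RESPONSIVENESS and is known for its part in leaf shape and in keeping the stem cells of the shoot tip. In rice, miR1425 is matched to mRNAs of pentatricopeptide repeat proteins, RNA-binding proteins of mitochondria and plastids that include restorers of male fertility. In orchids, miR5179 is matched to DEFICIENS-like MADS-box mRNAs, which specify petals and stamens, and in poplar miR477 is matched to mRNAs of GRAS transcription factors. miR894 was first described in a moss.

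The mature sequences are printed 5′ to 3′ as deposited, since the level, the seed and the target sites all refer to them. Capitals mark the seed, bases 2 to 8.
aof-miR394: uUGGCAUUcuguccaccucc
aof-miR5179: uUUUGCUCaagaccgcgcaac
aof-miR477i: aCUCUCCCucaagggcuuccg
aof-miR894a: cGAUUCACgucggguucacc
aof-miR1425-5p: uAGGAUUCaauccuugcugcu
No seed was shared among these sequences or with any other listed miRNA, so each formed a seed group of 1. The longest stretch that any of them had in common with another listed miRNA was 7 nt, shared by aof-miR477i with aof-miR319d and by aof-miR894a with aof-miR172b. As each family held 1 listed sequence, no seed could be shared within a family. Seeds and stretches were not compared among the other listed miRNAs, so these are no results about the 5 sequences as a group.

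The sequences aof-miR394, aof-miR5179 and aof-miR1425-5p began with U, the 5′ base favoured by the Argonaute protein AGO1. Among the conserved miRNAs 74.7% began with U. Aof-miR477i began with A, which stood first in 5 of the 154 conserved sequences, and aof-miR894a began with C, which stood first in 17 of them. The 5 sequences were 20 or 21 nt long. Their G and C content ran from 42.9% in aof-miR1425-5p to 61.9% in aof-miR477i, around a median of 57.1% over the list. At positions 10 and 11, the bases that flank the usual cleavage site, aof-miR394 held U and G, aof-miR5179 held A and G, aof-miR477i held C and A, aof-miR894a held U and C, and aof-miR1425-5p held A and U.

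The 5 miRNAs spanned a wide range of levels. The values were deposited in TPM, here the reads of a sequence per 1000000 reads of its library, not divided by length, and sequences were listed only if they reached at least 5 TPM in one library. The female values of the list summed to 56836 TPM and the male values to 50894 TPM. Low values rose in even steps, of 0.229 TPM for the female library and 0.157 TPM for the male one, which 99.4% of the values up to 60 TPM followed within 0.0051 TPM. If 1 step is 1 read, the libraries held 4373625 and 6374800 reads, and exact 95% Poisson intervals follow for each value. These totals equal none of the read totals that the study lists for its libraries, being somewhat above those left after its last filter and below those before it, so the reading of a step as a read is an assumption that every interval here shares. The intervals cover counting error only and say nothing of the spread between plants or library preparations.

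Aof-miR394, matched to an F-box mRNA in *Arabidopsis*, was the most abundant of the 5, with 231 TPM in the female library (interval 217 to 246) and 178 TPM in the male library (168 to 188). It ranked 21st and 19th of the 194 listed miRNAs, and its female value was 1.30 times the male value (exact conditional 95% interval of the ratio 1.19 to 1.42). If 1 step is 1 read, the female value was thus higher by more than counting error, but by less than 2-fold over the whole interval. The list as a whole was shifted in the same direction, with a median log2 ratio of 0.17, and relative to that median the log2 ratio of aof-miR394 fell from 0.38 to 0.20.

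Aof-miR5179, matched to floral MADS-box mRNAs in orchids, had 97.2 TPM in the female library (88.2 to 106.9) and 47.4 TPM in the male library (42.2 to 53.03). It ranked 33rd in the female and 39th in the male library. These intervals did not overlap, and the female value was 2.05 times the male value. The interval of the ratio, 1.77 to 2.39, included 2, so at this depth the difference could not be placed above or below the 2-fold limit. Its log2 ratio of 1.04 fell to 0.86 relative to the median of the list, which is under 2-fold.

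**Figure D1:**
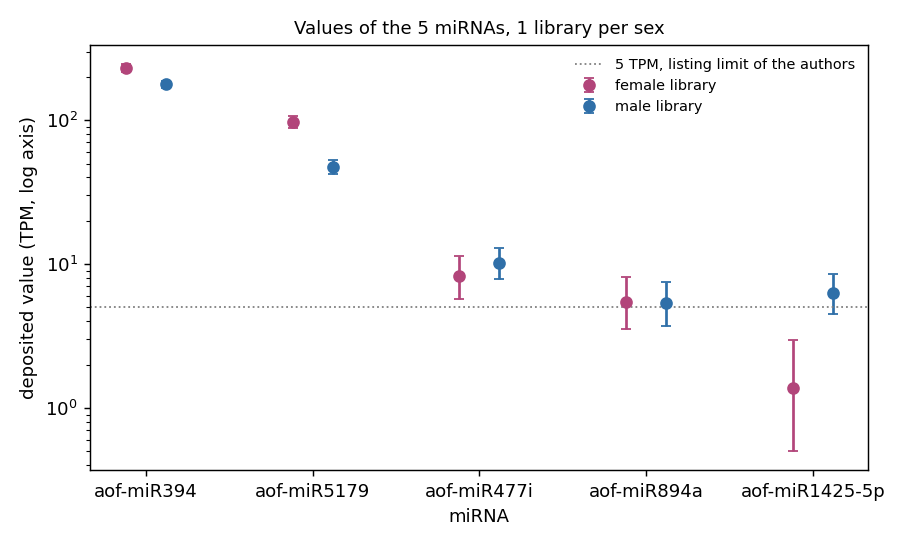
Deposited value in TPM (log axis) of each of the 5 miRNAs in the female and the male library, with exact 95% Poisson intervals as bars and the listing limit of 5 TPM as a dotted line. The intervals of both libraries stand apart for aof-miR394, aof-miR5179 and aof-miR1425-5p and overlap for aof-miR477i and aof-miR894a. Aof-miR1425-5p was listed for its male value alone, a selection that the intervals do not cover.

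The other 3 miRNAs were rare. Aof-miR477i had 8.23 TPM in the female library (5.77 to 11.4) and 10.2 TPM in the male library (7.87 to 13.0), or 36 and 65 reads if 1 step is 1 read. Its ratio of female to male was 0.807 with an interval of 0.522 to 1.23, so no difference was detectable at this depth, and a difference of 2-fold lay outside the interval.

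Aof-miR894a lay just above the listing limit in both libraries, with a female value of 5.49 TPM (3.52 to 8.16) and a male value of 5.33 TPM (3.69 to 7.45). If 1 step is 1 read, these values are 24 and 34 reads. The ratio was 1.03 (0.584 to 1.79), and its log2 changed sign, from 0.04 to -0.13, relative to the median of the list.

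Aof-miR1425-5p, whose rice relative is matched to pentatricopeptide repeat mRNAs, had 1.37 TPM in the female library (0.503 to 2.99) and 6.27 TPM in the male library (4.48 to 8.54). It ranked 187th in the female and 139th in the male library. If 1 step is 1 read, these values are 6 and 40 reads. Only the male value passed the listing limit, so this sequence was listed for its male value, and the limit itself favours a high male value in such a pair. The male value was 4.58 times the female value, with an interval of 1.93 to 13.2 that just included 2. The interval does not cover this selection, so neither the direction nor the size of the difference is established by it.

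Over 2-fold apart were therefore 2 of the 5 miRNAs, aof-miR5179 in the female and aof-miR1425-5p in the male direction, and 60 of the 194 listed miRNAs (30.9%). The study also lists aof-miR5179 and aof-miR1425-5p as differentially expressed. Its methods name Fisher exact and chi-square tests between the libraries, which compare libraries and not sexes. In the female direction the listed share was 18.0% and in the male direction 12.9%. None of the 5 had an interval of the ratio that lay wholly past 2-fold, against 32 listed miRNAs (16.5%). An interval without 1 was found for aof-miR394, aof-miR5179 and aof-miR1425-5p, and for 114 listed miRNAs (58.8%). The interval of aof-miR1425-5p does not cover its listing for the male value alone. The counts over the list also hold sequences that passed the listing limit in a single library. The median log2 ratio of the 5 was 0.04, with 3 of them higher in the female library, and 112 of all listed miRNAs (57.7%) were higher there. These shares lay near those of the list and are no result about the 5 miRNAs as a group.

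The share of miRNAs over 2-fold apart was 37.1% among the 70 listed miRNAs under 10 TPM in the higher library, the range of aof-miR1425-5p and aof-miR894a. It was 29.3% between 10 and 100 TPM, the range of aof-miR5179 and aof-miR477i, and 21.9% from 100 TPM, where aof-miR394 lies. A miRNA under 10 TPM in the higher library and over 2-fold apart was under the listing limit of 5 TPM in the other. It was thus listed for its higher value alone, so the limit shapes the first of these shares. A trend with level was not tested.

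**Figure D2:**
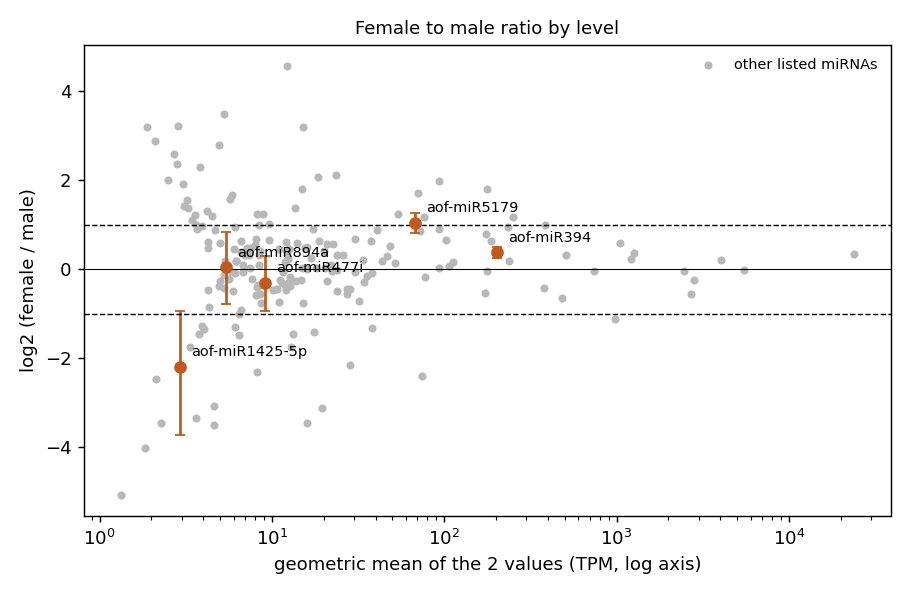
Log2 of the female to male ratio against the geometric mean of both values (TPM, log axis) for the listed miRNAs (grey) and the 5 miRNAs (orange, with exact 95% counting intervals as bars), and 2-fold limits as dashed lines. Aof-miRn29 is not drawn, as its female value is listed at 0. Aof-miR5179 sits close to the upper 2-fold line and aof-miR1425-5p below the lower one at the sparse left edge, and both bars reach their line.

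With 2 libraries, likeness of pattern reduces to likeness of both values. It was measured as the distance between miRNAs over the log2 female and log2 male values. Nearest to aof-miR394 was aof-miR166d-7 with 232 and 151 TPM in the female and male libraries (distance 0.24), followed by aof-miRn38 with 252 and 223 TPM. Nearest to aof-miR5179 was aof-miR827a with 97.4 and 53.8 TPM (0.18), and next came aof-miR160d with 115 and 51.1 TPM. These neighbours were picked for values near those of aof-miR5179, so their own female excess follows from that choice.

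Nearest to aof-miR477i were aof-miRn32 with 7.77 and 9.88 TPM and aof-miR166e-3 with 7.32 and 9.41 TPM. Aof-miR894a had exactly the values of aof-miR166i-4, and aof-miR168c followed with 5.72 and 5.02 TPM. The most isolated was aof-miR1425-5p, whose nearest neighbours were aof-miR396g with 1.83 and 6.12 TPM (0.42) and aof-miR166e-9 with 0.91 and 5.02 TPM (0.67). Its counting intervals, 0.503 to 2.99 TPM in the female and 4.48 to 8.54 TPM in the male library, held the values of both neighbours. As these neighbours were picked for near values, this does not show whether counting error accounts for the larger distance, which was not tested.

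A single listed sequence is common for rare families and less so for abundant ones. Of the 26 conserved families, 9 held 1 sequence. Of the 13 families that summed to between 50 and 500 TPM in the higher library, 4 held 1 sequence, and miR394 and miR5179 were among them. The other families in this range held up to 5 sequences. For aof-miR394 the listing limit of 5 TPM is 2.16% of its higher value, so a length or sequence variant above that share would have reached the limit. For aof-miR5179 the limit is 5.15%. For aof-miR477i it is 49.0%, for aof-miR1425-5p 79.7% and for aof-miR894a 91.1%, so in these 3 families a second sequence below such a share would not have been listed.

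**Figure D3:**
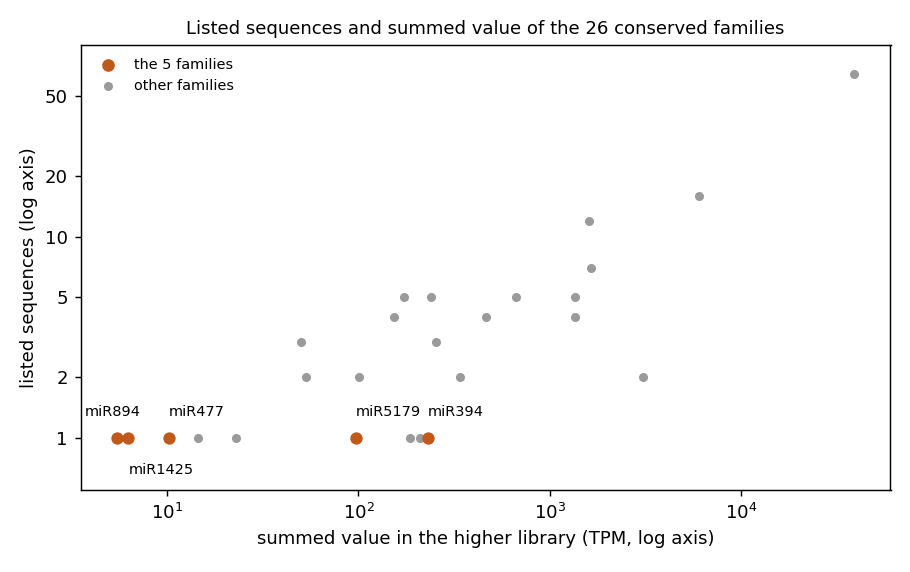
Number of listed sequences (log axis) against the summed value in the higher library (TPM, log axis) for the 26 conserved families, with the 5 families in orange. The families miR894, miR1425 and miR477 lie at the left end with the lowest sums, while miR394 and miR5179 lie at 231 and 97.2 TPM.

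Of the 5 miRNAs, aof-miR394 was the only one with a precursor in the supplementary table of the study. This precursor is a rice sequence of 83 nt, as the study sought hairpins both in asparagus unigenes, its assembled transcripts, and in rice. It is printed to show the arm that carries the miRNA, in capitals.
Rice hairpin: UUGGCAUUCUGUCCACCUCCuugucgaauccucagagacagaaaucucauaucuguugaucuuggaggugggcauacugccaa
The whole asparagus sequence occurs in it without a substitution, which the study required of such matches, from base 1 to base 20, in the 5′ arm. Folded with RNAfold, the precursor had an energy of -35.5 kcal/mol, and 16 of the 20 bases of the miRNA were paired, with partners between bases 64 and 82 of the 3′ arm.

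Target sites were listed for 3 of the 5 miRNAs. The table aligns each miRNA to a unigene and gives a score, which equalled 1 for each mismatch, 0.5 for each G:U pair and 1 more for each gap in all 463 sites, so that a lower score stands for closer pairing. Listed scores ran from 0.5 to 3. The table holds no reads of the degradome library, in which the ends of cleaved mRNAs were sequenced. Aof-miR394 had 3 sites, aof-miR477i had 2 and aof-miR1425-5p had 1, in 6 different unigenes. Aof-miR5179 and aof-miR894a had none. Over the whole list, 67.0% of the miRNAs had a site, with a median of 2 sites each, and of the 26 conserved families 3 had none, the third being miR479.

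The sites are printed 5′ to 3′ as RNA on the strand that pairs with the miRNA, and capitals mark bases in a mismatch or a G:U pair.
aof-miR394 on UN50672: ggagguCgacagaaugccaa
aof-miR394 on UN06250: ggaggugUacagGaugUcGa
aof-miR394 on UN06640: UgagguggaUagaGugcUGa
aof-miR477i on UN51651: Aggaagcccuugagggagagu
aof-miR477i on UN02031: cCgaagcUUuugaAggagagu
aof-miR1425-5p on UN14481: agcagUUGggauugaaucUua
Positions below are counted from the 5′ end of the miRNA, so they run from right to left in these sites.

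The closest site of aof-miR394 lay on the minus strand of UN50672, from base 92 to base 111, whose best database hit was an F-box family protein of peach. It scored 1, with a mismatch at position 14 and 19 of 20 bases in Watson-Crick pairs. F-box proteins choose the substrates of a ubiquitin ligase. As the site was on the minus strand, the mRNA holds it only if that strand is the transcribed one, which was not given in the sources used here. Over the whole list 2 sites had an F-box description, and the other one, in UN19848, was listed for miR528.

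The second site of aof-miR394 lay in UN06250 (bases 66 to 85), described as a probable ubiquitin-conjugating enzyme E2 25-like, an enzyme class that hands ubiquitin to its ligases. It scored 2.5, with a mismatch at position 13 and G:U pairs at positions 2, 4 and 8. The third lay in UN06640 (bases 440 to 459), described as an ankyrin-like protein, a class named for repeats that bind other proteins. It scored 3, with a mismatch at position 20 and G:U pairs at positions 2, 3, 7 and 11. Both sites had 3 seed bases in G:U pairs, while the F-box site had a fully paired seed.

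Aof-miR477i had its closest site in UN51651 (bases 191 to 211), with no database hit. It scored 1, and its only mismatch was at position 21, the last base of the miRNA. The site was listed on the minus strand of the unigene. On the plus strand the same bases read as the miRNA itself with the substitution G21U, in which the miRNA's base comes first:
UN51651, plus strand: acucucccucaagggcuuccU
Of the 162 listed minus-strand sites without a gap, 33 (20.4%) lay within 1 substitution of their miRNA in this way, also the F-box site of aof-miR394 (C14G). Any such site reads so, with 1 substitution for each mismatch or G:U pair, so this share only restates how closely the sites pair.

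The other site of aof-miR477i lay in UN02031 (bases 760 to 780), described as surfeit locus protein 6, which in mammals is a nucleolar protein. It scored 3, with mismatches at positions 8 and 20 and G:U pairs at positions 13 and 14. None of the 4 sites with a GRAS or scarecrow description in the table was listed for miR477. All lay in UN22221 and belonged to miR171.

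The single site of aof-miR1425-5p lay on the minus strand of UN14481 (bases 36 to 56), with no database hit. It scored 2.5, with a mismatch at position 15 between G:U pairs at positions 14 and 16, and another G:U pair at position 3. The only site with a pentatricopeptide description in the table, in UN13406, was listed for miR319. No listed site had a description with MADS, DEFICIENS, APETALA3 or GLOBOSA, the words sought for miR5179. Of all listed sites 56.2% had no database hit, so these words could be sought only in the described ones.

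The 6 sites had a median score of 2.5, as had all listed sites, and 2 of them scored 1 or less against 23.5% of all. Both positions 10 and 11 were in Watson-Crick pairs in 5 of the 6 sites and in 92.2% of all sites. The exception was UN06640, with its G:U pair at position 11. The seed was fully paired in 2 of the 6 sites, UN50672 and UN51651, and in 59.4% of all sites. Minus-strand sites made up 3 of the 6 and 41.3% of all.

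**Figure D4:**
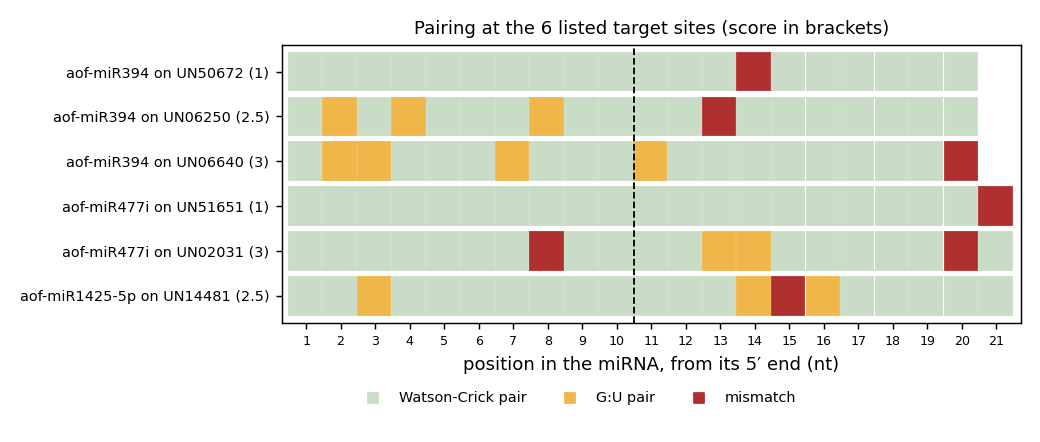
Pairing state at each miRNA position, counted in nt from the 5′ end, for the 6 listed sites, with the score in brackets and a dashed line between positions 10 and 11. UN50672 and UN51651 each carry 1 mismatch, at positions 14 and 21, while the 4 other sites carry G:U pairs and up to 2 mismatches.

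The 2-fold counts depended on the scale of the values. With 5 TPM added to both values, neither aof-miR5179 nor aof-miR1425-5p was over 2-fold apart, at log2 ratios of 0.96 and -0.82. When both libraries were brought to the same median ratio or the same sum, aof-miR5179 fell under 2-fold, at 0.86 and 0.88, while aof-miR1425-5p stayed beyond it, at -2.37 and -2.35. The direction of aof-miR394, aof-miR5179, aof-miR477i and aof-miR1425-5p was the same under these 3 settings and with 1 TPM added to both values, and that of aof-miR894a turned under both rescalings.

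**Figure D5:**
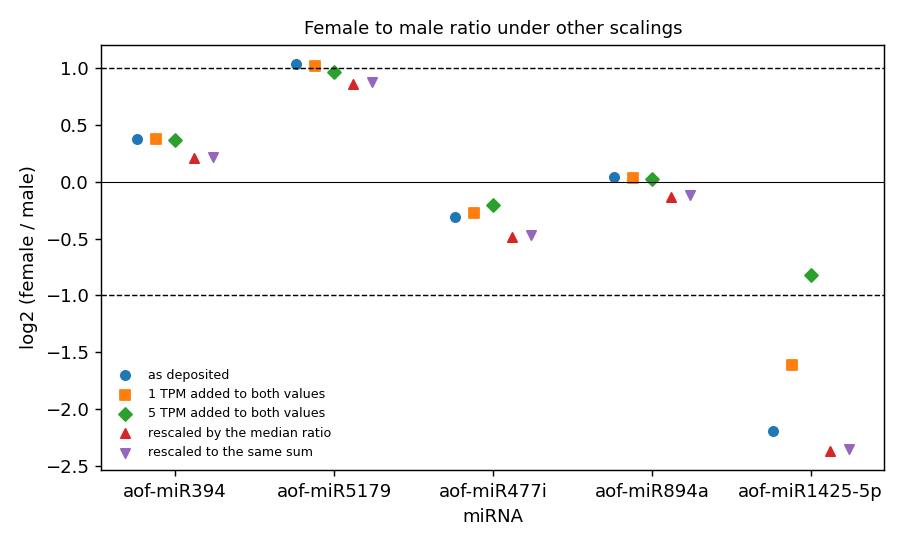
Log2 of the female to male ratio of the 5 miRNAs as deposited and under 4 other settings, with 2-fold limits as dashed lines. The points of aof-miR5179 straddle the upper line between 0.86 and 1.04, those of aof-miR1425-5p run from -2.37 to -0.82, and those of aof-miR894a lie on both sides of 0.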

How the data were processed

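Small RNA libraries of 1 female and 1 male pool were compared. The authors trimmed adapters, discarded reads of low quality or small length and those of structural RNAs, collapsed reads to unique sequences of 20 to 24 nt, matched them to known mature miRNAs with up to 2 mismatches and deposited RPM values, which they call TPM. The target score was deposited by the authors with each alignment to unigenes, and the program behind it is not given in the sources used here. The degradome library was not analysed here.

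Ratios were computed without a pseudocount. The read step was sought over possible library totals. Intervals are exact (Poisson, and Clopper-Pearson for ratios, at 95%) and assume that 1 step is 1 read. Positions in sites were read from the deposited alignments, and the hairpin was folded with RNAfold 2.7.2. Named were the 5 miRNAs, the 2 nearest miRNAs of other families for each, and all their targets. The members, word lists and alternatives were chosen with earlier results of these data known. Interval and step code was tested on simulated data. Python 3.11.15, numpy 2.4.6, scipy 1.17.1 and matplotlib 3.10.9 were used.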

Additional observations from a re-analysis of the deposited data

How the results depend on the processing

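No paired analysis was possible because each sex has 1 library. The Fisher exact test between the libraries was not run, as 21 values of each library lay within 20 steps where 100 were required before reads are taken as rebuilt for a test, and the intervals that use such reads hold only if 1 step is 1 read. The log2 ratio of aof-miR394 was 0.20 after scaling to the median ratio and 0.22 after scaling to the same sum, both outside its counting interval, and that of aof-miR1425-5p was -0.82 with 5 TPM added. Of the 5 miRNAs, 0 were over 2-fold apart with 5 TPM added, and 1 was so after either rescaling, when 10 TPM in the higher library were required, or at a 3-fold limit. Over the list, 32 were over 2-fold apart with 5 TPM added, 34 with 10 TPM required and 25 of 71 once near-identical members of a family were merged, and 35 were over 3-fold apart. On the plus strand alone 3 target unigenes were left. Depth limited aof-miR1425-5p, aof-miR894a and aof-miR477i most.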

Other observations

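Aof-miR1425-5p holds an inverted repeat, in which a stretch of 6 nt at positions 2 to 7 is the reverse complement of the stretch at positions 9 to 14, with 1 nt between them. Among the 194 listed miRNAs 3 (1.55%) held such a repeat of 6 nt, the others being aof-miR319c and aof-miR319d, and the median longest repeat was 3 nt. This feature was chosen after the sequences were seen.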
